A study of Homo sapiens with 13 samples.

Results

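The genes described here are MYC and 31 genes of ribosome biogenesis and polyamine synthesis that are known as targets of MYC. They were chosen by name, with earlier results of these data known. All 32 symbols asked for were found among the 62703 genes of both count tables. All 32 passed the filter on low counts in both cell lines. Poly-A RNA was counted in 13 libraries of SKOV3 and OVCAR3, human ovarian cancer cell lines. In SKOV3, 3 libraries carried a control vector, 3 overexpressed RSF1, a histone chaperone that binds ubiquitinated histone H2A, and 3 overexpressed RSF1delUAB, which by its name lacks the UAB region of RSF1. In OVCAR3, 2 libraries expressed a scramble control and 2 a UAB peptide, and both of these groups had been given doxycycline at 2000 ng/mL for 6 days. The labels give no doxycycline dose for SKOV3, and no OVCAR3 library without doxycycline was analysed here. Whether a SKOV3 group is 1 clone or a pool of cells, and what drives its construct, is not given in the sources used here.

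Ribosome biogenesis begins in the nucleolus, where RNA polymerase I transcribes the precursor of ribosomal RNA. Small nucleolar RNA particles of the box C/D and H/ACA kinds then methylate and pseudouridylate the precursor, while assembly factors cut, fold and pack it into the small and the large subunit. MYC is a transcription factor that binds E-box sequences with its partner MAX, and its best-known targets include the genes of this pathway and ODC1, the enzyme that commits ornithine to polyamine synthesis. Poly-A selection leaves ribosomal RNA itself out of these libraries, so the values below are those of the messenger RNAs of the factors.

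The MYC and MAX dimer is known to bind the letters CACGTG, which read the same on both strands, and this motif was searched in the RefSeq promoter windows of 250 bases before to 50 bases after the transcription start (GRCh38.p14). A window was found for 26 members, and 13 of them held the motif in at least 1 window, against 2396 of 27305 genes in the table (8.8%). Per window the motif was in 13 of 34 windows of members (38.2%) and 2548 of 35116 windows in all (7.3%). The looser letters CANNTG, which include CACGTG, were in a window of 80.8% of these members and of 73.1% of all genes. A match is a description of the letters and no evidence of binding, and base composition was not matched between members and other genes. The members were picked as known targets of MYC, so their larger share of CACGTG is no independent result. The sites shown are those of the 7 members with the motif whose values per library are described below as the largest rises and falls of a SKOV3 comparison or, for UTP20, as a fall of the same size with both constructs, 30 bases each on the gene's own strand from 5′ to 3′, with the motif in capitals.
ODC1, chr2:10448024-10448053, minus strand: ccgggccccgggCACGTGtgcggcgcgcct
ODC1, chr2:10447990-10448019, minus strand: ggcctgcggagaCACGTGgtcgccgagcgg
SRM, chr1:11060200-11060229, minus strand: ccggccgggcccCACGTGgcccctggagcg
LYAR, chr4:4290068-4290097, minus strand: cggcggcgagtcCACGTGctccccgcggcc
RRP9, chr3:51941892-51941921, minus strand: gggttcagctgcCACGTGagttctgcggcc
UTP20, chr12:101280083-101280112, plus strand: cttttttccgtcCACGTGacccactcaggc
FBL, chr19:39846356-39846385, minus strand: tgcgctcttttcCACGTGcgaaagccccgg
PES1, chr22:30591880-30591909, minus strand: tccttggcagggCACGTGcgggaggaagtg

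The first base of the motif lay 64 bases before the start in LYAR, 199 before it in SRM, 10 before it in UTP20 and 5 before it in RRP9. In FBL and PES1 it lay 6 and 13 bases after the start. ODC1 held it 29 bases before and 5 bases after the same RefSeq start, 10448012. The last 20 bases of that window were in no GENCODE 29 transcript of ODC1. The window at the start of the counted gene, 10448327, held no motif. In LYAR likewise the motif lay by a start at 4290021, and the window at the counted start, 4290154, held none. The start used for PES1, 30591910, also differed from that of the counted gene, 30607083. The other members with the motif were DDX21, GNL3, GAR1, WDR43, BYSL and NOP2. Genes that fell most (LYAR, RRP9, ODC1) and genes that rose most (FBL, PES1) thus shared the same letters. Of the 13 members with the motif, 2 were higher and 10 lower with RSF1 than with control. Of the 13 members with a window but no motif, 2 were higher and 4 lower, a difference that was not tested. With RSF1delUAB against control 10 members were lower in each of these sets of 13, and with RSF1 against RSF1delUAB 10 were higher in each. No window was found for MYC, NOP58, NOLC1, BOP1, RRS1 and RRP12.

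Total counts per library ranged from 15194678 to 18748009 in SKOV3 and from 18160558 to 24026993 in OVCAR3. Levels are TMM-scaled CPM, library-size normalised read counts within a line, with n = 3 libraries in each group of SKOV3 and n = 2 in each group of OVCAR3, and differences are log2 fold changes ± SE from edgeR. RSF1 itself, read as a check of the SKOV3 labels, stood at 42.2 to 47.5 CPM in control, 631 to 775 CPM in RSF1 and 459 to 509 CPM in RSF1delUAB libraries. Of 12 ovarian carcinoma markers, ERBB2 was highest in SKOV3, at 8031 to 8723 CPM in control, 2139 to 2816 CPM with RSF1 and 7293 to 7794 CPM with RSF1delUAB. PAX8 stood at 274 to 515 CPM over these libraries. MUC16 was at most 0.189 CPM in SKOV3, and WT1 and FOLR1 were at most 0.265 and 0.132 CPM in control. Mean WT1 was 3.08 CPM with RSF1 and 2.25 CPM with RSF1delUAB, and mean FOLR1 2.63 and 20.4 CPM. In OVCAR3, MUC16 stood at 206 to 568 CPM with the scramble control and 649 to 1094 CPM with the UAB peptide. Immune markers summed to at most 3.08 CPM in SKOV3, with CD3E, MS4A1 and TYROBP at 0, and to 7.45 to 14.3 CPM in OVCAR3. The 10 fibroblast markers summed to 6.42 to 8.23 CPM in control but to 122 to 133 CPM in both construct groups. Different genes led these sums: mean POSTN was 72.6 CPM with RSF1 and 0 with RSF1delUAB, and mean LUM 21.3 and 80.5 CPM. LUM, COL1A1, COL1A2, DCN and PDGFRA were higher with both constructs than in control. Mean COL1A1 was 3.19 CPM in control, 18.9 CPM with RSF1 and 17.5 CPM with RSF1delUAB. COL3A1, PDGFRB, FAP and THY1 were at most 1.11 CPM in SKOV3. In OVCAR3 the fibroblast markers summed to 50.6 to 51.9 CPM with the scramble control and 47.3 to 60.1 CPM with the UAB peptide. The 7 endothelial markers, mostly EGFL7, summed to 36.4 to 42.5 CPM in control, 29.3 to 42.2 CPM with RSF1 and 66.9 to 76.0 CPM with RSF1delUAB, and in OVCAR3 to 42.1 to 45.8 CPM with the scramble control and 64.8 to 65.1 CPM with the UAB peptide. Their part in the results was not tested. In bulk RNA, fewer cells of a type and less RNA per cell cannot be told apart. The labels do not say that replicates were separate cultures, so p-values measure the spread between these libraries, which may be technical.

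RSF1 replicate 1 stood apart from the other RSF1 libraries. A chi-square of its counts against theirs, divided by the degrees of freedom, gave 12.7 and 14.4, against 3.63 between replicates 2 and 3. Relative to the other libraries of the group, the shortest 25% of genes stood 0.29 log2 units above the longest 25% in replicate 1, against -0.16 and -0.14 in the others. Among members, the long genes POLR1A, HEATR1 and UTP20 were lowest and the short genes NHP2, SRM and FBL highest in this library of the group. Others did not follow length: the long genes WDR12, DKC1, NCL and NPM1 were highest there too, and the short gene RRS1 was not. Calls that depend on it are named below.

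The members together took 0.430 to 0.438% of all counts in SKOV3 control libraries, 0.384 to 0.416% with RSF1 and 0.302 to 0.312% with RSF1delUAB. The 3 groups did not overlap in this share. NCL and NPM1, with means of 932 and 888 CPM in control, weighed most in it in SKOV3. Mitochondrial genes took 3.51 to 3.59%, 4.12 to 4.33% and 4.39 to 5.21% of counts in the same groups, also without overlap, and their part in the members' share was not tested. MYC did not follow that order.

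**Figure D1:**
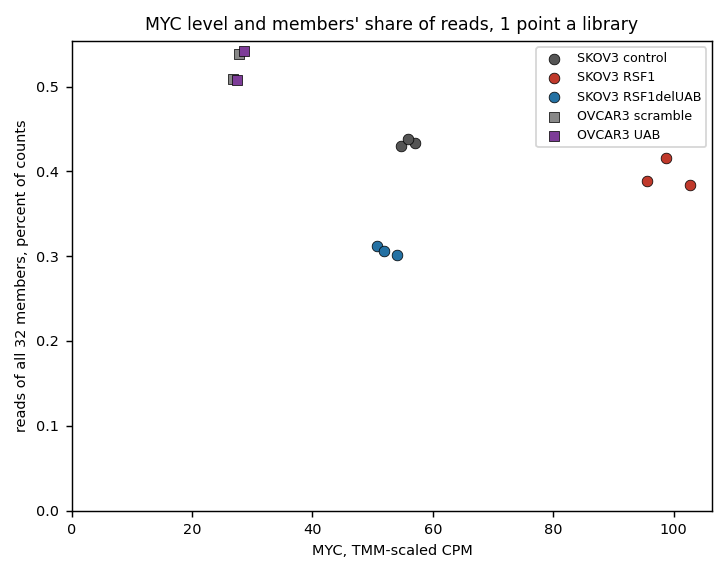
MYC level in TMM-scaled CPM (x axis) against the percent of counts that the 32 members took together (y axis), 1 point per library, with SKOV3 as circles and OVCAR3 as squares. Control and RSF1delUAB libraries lie at about the same MYC level, 50.8 to 57.1 CPM, at different shares, and the RSF1 libraries lie to the right, at 95.6 to 103 CPM.

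MYC, the transcription factor itself (ENSG00000136997, chromosome 8, 127735434 to 127742951 on GRCh38), was higher in RSF1 than in control libraries. In RSF1delUAB libraries it was not called different from control. The 3 control libraries stood at 54.7, 57.1 and 56.0 CPM. With RSF1 the libraries stood at 98.7, 95.6 and 103 CPM. With RSF1delUAB they stood at 50.8, 51.9 and 54.1 CPM. Every RSF1 library was thus above every other SKOV3 library, while the RSF1delUAB libraries lay just below the control ones. The log2 fold change was 0.82 ± 0.068 against control (adjusted p = 1.38e-09) and 0.92 ± 0.068 against RSF1delUAB (adjusted p = 1.16e-09). RSF1delUAB against control gave -0.10 (95% interval -0.24 to 0.05, adjusted p = 0.220), which does not show equal levels. In OVCAR3, MYC was at 27.8 and 26.8 CPM with the scramble control and 27.5 and 28.6 CPM with the UAB peptide. These groups overlapped, with a log2 fold change of 0.04 (95% interval -0.27 to 0.35, adjusted p = 0.905).

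RSF1 against control asked what full-length RSF1 changed in SKOV3. Of the 32 members, 5 were higher (MYC, FBL, PES1, TSR1 and NOB1), 18 were lower and 9 did not pass the threshold of an adjusted p of 0.05. Among all 16735 genes tested 34.3% were higher and 32.9% lower. The share of members called in either direction, 71.9%, was thus close to the 67.3% of all genes. The split by direction was not, with 15.6% of members higher and 56.2% lower. The median member changed by -0.28, against 0.02 for all genes. At least 2-fold changes were found in 1 of the 31 members other than MYC upwards (16.2% of all genes) and 5 downwards (10.2%). The groups did not overlap in 21 of these 31, where they did not in 69.0% of all genes. Apart from MYC, 4 members moved with MYC and 18 moved against it. Without RSF1 replicate 1, NOP56 and NPM1 were also called lower and POLR1A and POLR1B higher.

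RSF1delUAB against control asked the same of the construct without the UAB region. Here 3 members were higher (FBL, PES1 and NOB1), 25 were lower and 4 did not pass (MYC, POLR1A, NOP2 and TSR1). Among all genes 34.5% were higher and 32.1% lower, 66.6% in all. The median member changed by -0.63, against 0.02 for all genes. Of the 31 members other than MYC, 1 was at least 2-fold higher (15.7% of all genes) and 8 at least 2-fold lower (9.88%), and 29 had groups that did not overlap (72.9%). This comparison shares its control libraries with the one before.

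Full-length RSF1 against RSF1delUAB asked what the UAB region adds. Here 25 members were higher with RSF1, 0 lower and 7 not called (NOP58, NHP2, GAR1, POLR1A, NOP2, PPAN and UTP20). Among all genes 18.5% were higher and 20.2% lower, 38.6% in all. At an unadjusted p under 0.05, edgeR gave 28 members higher and 0 lower, and DESeq2 and limma-voom also called 0 lower. The median member changed by 0.30, against 0.00 for all genes, so most members differed by much less than 2-fold. Of the 31 members other than MYC, 1 (LYAR) was at least 2-fold higher (4.66% of all genes) and 0 at least 2-fold lower (4.18%), and 25 had groups that did not overlap (46.9%). Of the 31 members other than MYC, 24 were called in the direction of MYC. RSF1 mRNA was also higher in RSF1 than in RSF1delUAB libraries. The groups may also differ as cell populations, with mean ERBB2 at 2493 CPM in RSF1 and 7567 CPM in RSF1delUAB libraries. The UAB region, the amount of the construct and the cell population thus cannot be told apart here. Left-out libraries also added calls: NHP2 and GAR1 without RSF1 replicate 2, NOP58 without RSF1 replicate 3 or RSF1delUAB replicate 2, and POLR1A without RSF1 replicate 1.

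By group means, 23 members ran from control through RSF1 down to RSF1delUAB. MYC ran from RSF1 through control to RSF1delUAB, as did POLR1A, POLR1B and TSR1. FBL, PES1 and NOB1 ran from RSF1 through RSF1delUAB to control, and NOP2 and UTP20 from control through RSF1delUAB to RSF1. Neighbours in these orders often did not differ beyond their spread, as the tests below give.

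**Figure D2:**
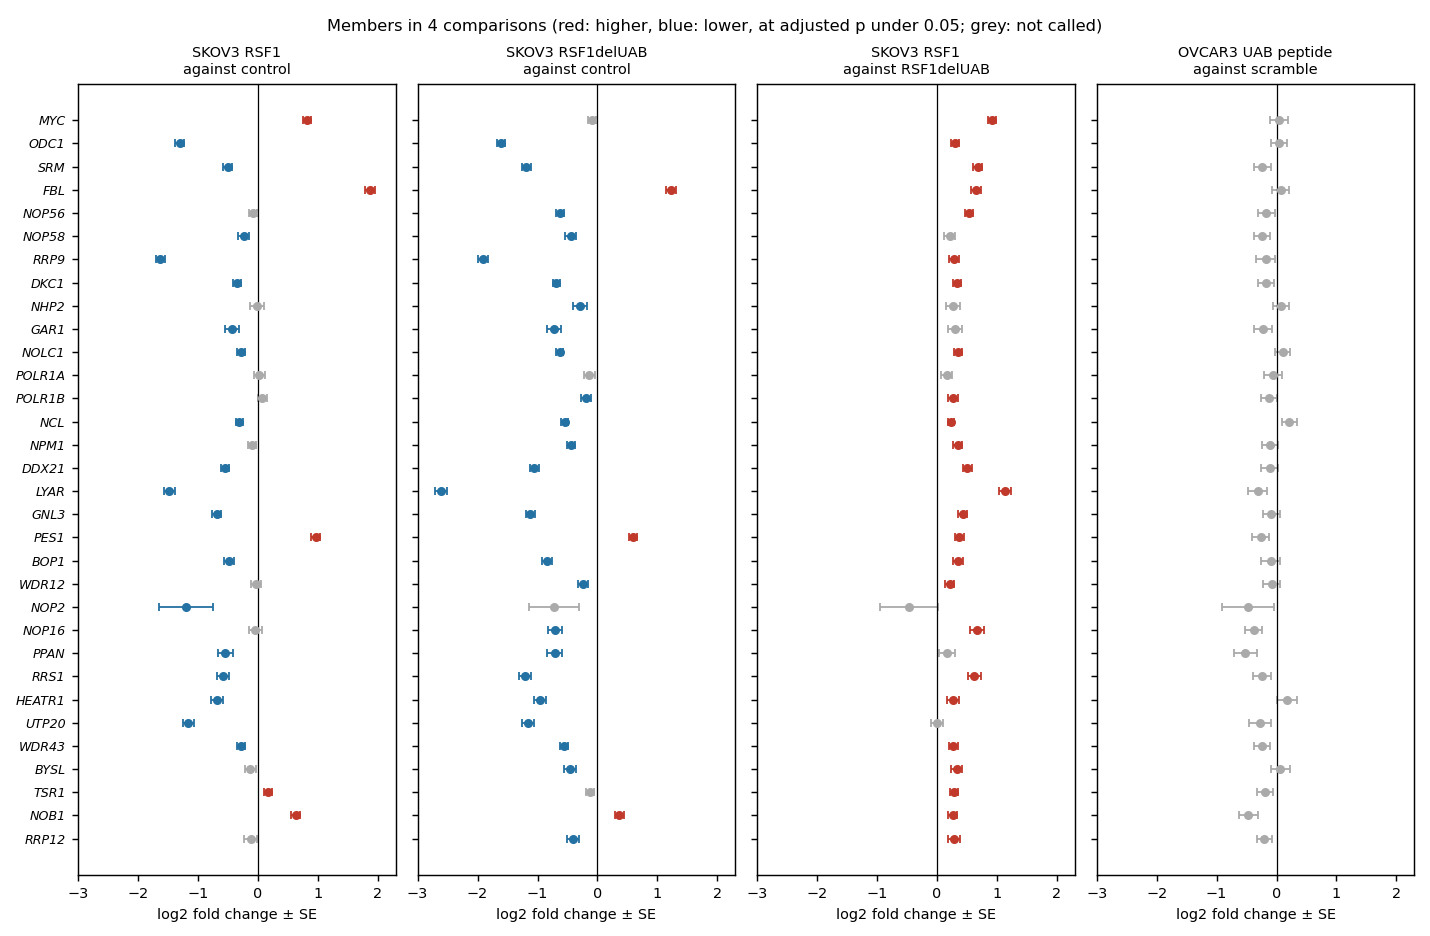
Log2 fold change ± SE (x axis) of each member (y axis, ordered by role) in the 4 comparisons, in red where higher and blue where lower at an adjusted p under 0.05, and grey where not called. Blue points prevail in both comparisons with control (18 and 25 members), red points in RSF1 against RSF1delUAB (25 members), and every point of OVCAR3 is grey.

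Both enzymes of polyamine synthesis fell with each construct. ODC1, ornithine decarboxylase, stood at 109.7, 111 and 119 CPM in control, 45.5, 46.3 and 45.5 CPM with RSF1 and 36.5, 38.4 and 36.4 CPM with RSF1delUAB. No library of one group reached the next. Its log2 fold change was -1.31 ± 0.069 with RSF1 (adjusted p = 1.55e-12) and -1.61 ± 0.070 with RSF1delUAB (adjusted p = 6.69e-14), and RSF1 stood 0.30 above RSF1delUAB (adjusted p = 0.00201). SRM, spermidine synthase, stood at 108, 119 and 107 CPM in control, 86.6, 73.1 and 75.9 CPM with RSF1 and 50.03, 46.9 and 50.2 CPM with RSF1delUAB. The groups again did not overlap, and the RSF1 libraries lay between the others. The log2 fold changes of SRM were -0.51 and -1.18 against control, and RSF1 exceeded RSF1delUAB by 0.68 ± 0.078 (adjusted p = 6.65e-07).

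The box C/D particle proteins did not move together. FBL, fibrillarin, the methyltransferase of the particle, rose most of all members. Its control libraries stood at 67.8, 74.1 and 68.7 CPM, those of RSF1 at 291, 230.2 and 247 CPM and those of RSF1delUAB at 169, 149.9 and 172 CPM. All construct libraries were well above control, and RSF1 was above RSF1delUAB. The log2 fold change was 1.87 ± 0.085 with RSF1 (adjusted p = 1.57e-13), 1.22 ± 0.084 with RSF1delUAB (adjusted p = 1.00e-10) and 0.65 between them (adjusted p = 2.38e-06). RRP9, a protein that binds the U3 small nucleolar RNA, went the other way, from 90.7, 91.0 and 87.8 CPM in control to 30.4, 27.2 and 29.5 CPM with RSF1. With RSF1delUAB it stood at 26.0, 22.7 and 22.8 CPM. Both construct groups were far below control and close to each other. The log2 fold change of RRP9 was -1.63 ± 0.078 with RSF1 (adjusted p = 3.60e-13) and -1.91 ± 0.079 with RSF1delUAB (adjusted p = 3.21e-14), and the 0.28 between the constructs was lost without RSF1delUAB replicate 2. The scaffold proteins NOP56 and NOP58 moved less. NOP56 changed by -0.08 with RSF1 (not called) and -0.62 with RSF1delUAB, and NOP58 by -0.24 and -0.45. The call of NOP58 with RSF1 (adjusted p = 0.0238) was lost without RSF1 replicate 2 or 3 and without control replicate 1 or 3.

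**Figure D3:**
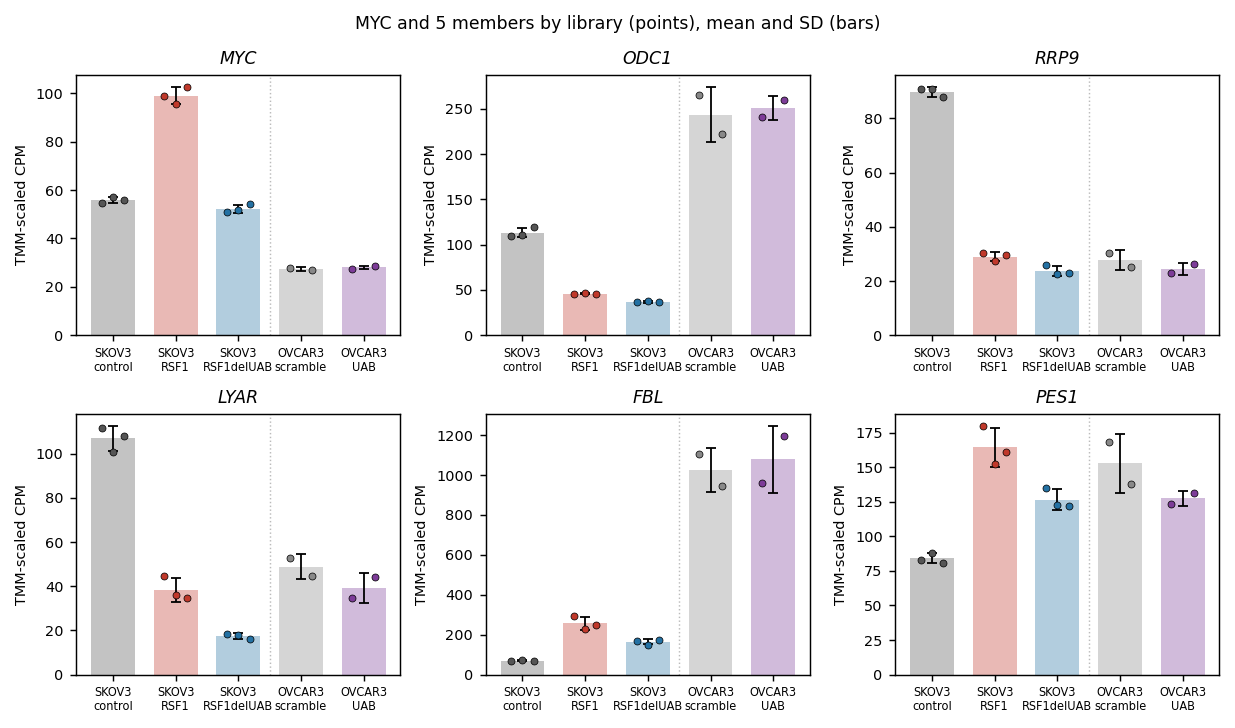
TMM-scaled CPM (y axes, from 0) of MYC and 5 members in each library (points), with the group mean (bars) and SD (error bars), for the 5 groups on the x axes. MYC is higher in the RSF1 group than in the other SKOV3 groups. ODC1, RRP9 and LYAR are lower and FBL and PES1 higher in both construct groups than in control. FBL in OVCAR3 stands far above SKOV3, with a mean of 1026 CPM in the scramble group.

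Of the H/ACA particle, DKC1, the pseudouridine synthase dyskerin, fell by 0.35 with RSF1 and by 0.68 with RSF1delUAB. GAR1, a core protein, fell by 0.43 and 0.73, and NOLC1, a chaperone of these particles, fell by 0.28 and 0.63. NHP2, another core protein, changed by -0.02 with RSF1 (not called) and -0.29 with RSF1delUAB (adjusted p = 0.0358), a call lost when RSF1delUAB replicate 2 or 3, or control replicate 2 or 3, was left out. RSF1 stood above RSF1delUAB by 0.33 in DKC1 and 0.36 in NOLC1. For GAR1 and NHP2 the difference of 0.30 and 0.27 did not pass (adjusted p = 0.0550 and 0.0723).

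The members that are subunits of RNA polymerase I, POLR1A and POLR1B, changed little, and other subunits are given with the lists below. POLR1A, the largest subunit, changed by 0.03 (95% interval -0.17 to 0.22) with RSF1 and -0.14 (-0.33 to 0.06) with RSF1delUAB, neither of them called. Its RSF1 libraries spread widely, at 99.0, 129 and 143 CPM, and replicate 1 was the lowest. POLR1B, the second subunit, changed by 0.08 (not called) and -0.19 (adjusted p = 0.0475), the latter lost with any RSF1delUAB library or control replicate 2 or 3 left out. RSF1 exceeded RSF1delUAB by 0.26 in POLR1B (adjusted p = 0.0134), a call lost without RSF1 replicate 2, and the 0.16 of POLR1A was not called. Without RSF1 replicate 1, both were called higher with RSF1 than with control, at 0.16 each.

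All 5 nucleolar proteins were lower with RSF1delUAB than with control, and 4 of them with RSF1. LYAR, a nucleolar zinc finger protein linked to cell growth, fell most. It went from 112, 101 and 108 CPM in control to 44.6, 36.0 and 34.4 CPM with RSF1 and to 18.5, 18.1 and 16.0 CPM with RSF1delUAB. The 3 groups were far apart. The log2 fold change was -1.48 ± 0.090 with RSF1 (adjusted p = 1.50e-11) and -2.61 ± 0.097 with RSF1delUAB (adjusted p = 5.55e-15), and RSF1 exceeded RSF1delUAB by 1.13 ± 0.099 (adjusted p = 1.77e-08). GNL3, the GTPase nucleostemin, fell by 0.69 and 1.12, and the RNA helicase DDX21 by 0.55 and 1.06. Nucleolin, NCL, fell by 0.31 and 0.55. Nucleophosmin, NPM1, changed by -0.10 (not called) and -0.44. RSF1 exceeded RSF1delUAB in all 5, by 0.50 in DDX21, 0.43 in GNL3, 0.34 in NPM1 and 0.23 in NCL. The annotation holds 49 numbered pseudogenes of NPM1, so its counts are uncertain.

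Among large-subunit factors, PES1 and BOP1, partners with WDR12 in the PeBoW complex, moved apart. PES1 rose from 83.1, 88.1 and 81.0 CPM in control to 179.8, 152 and 161 CPM with RSF1 and 135, 123 and 122 CPM with RSF1delUAB. The groups did not overlap. Its log2 fold change was 0.97 ± 0.074 with RSF1 (adjusted p = 4.97e-10) and 0.59 ± 0.074 with RSF1delUAB (adjusted p = 6.35e-07), and RSF1 exceeded RSF1delUAB by 0.37. BOP1 fell by 0.49 and 0.84. WDR12 changed by -0.04 (not called) and -0.24, and its difference of 0.21 between the constructs (adjusted p = 0.0446) was lost with any RSF1delUAB library or RSF1 replicate 1 or 2 left out. Its fall with RSF1delUAB was lost without control replicate 3.

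RRS1, which helps to load the 5S particle, fell by 0.59 with RSF1 and by 1.21 with RSF1delUAB, and RSF1 exceeded RSF1delUAB by 0.62. NOP16 changed by -0.04 (not called) and -0.71, with 0.67 between the constructs. PPAN, a factor of the 60S pathway, fell by 0.55 and 0.71, with 0.16 between the constructs that was not called. NOP2, a ribosomal RNA methyltransferase, was near 1 CPM in every group, at 0.794, 1.53 and 0.646 CPM in control and 0.456, 0.381 and 0.440 CPM with RSF1. Its log2 fold change of -1.20 ± 0.46 (adjusted p = 0.0253) rests on few counts, and the call was lost without control replicate 2 or without RSF1 replicate 2 or 3. Its other changes, -0.73 and -0.47, were not called.

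NOP2 shares 54.4% of its counted bases with an overlapping gene and PPAN 49.2% with the readthrough gene PPAN-P2RY11 and P2RY11. Reads in shared bases may be left uncounted or split, so both levels are uncertain. The same holds in part for NHP2 (28.0%), TSR1 (26.9%), HEATR1 (23.1%), NOB1 (20.4%) and NOP16 (18.6%), since the use of strand in counting is not given in the sources used here.

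Among small-subunit factors, UTP20, a scaffold of the processome, fell alike with both constructs. It went from 125, 115 and 121 CPM in control to 44.0, 62.7 and 54.8 CPM with RSF1 and 51.1, 55.0 and 55.9 CPM with RSF1delUAB, the last groups overlapping. Its log2 fold change was -1.16 with each, and the difference between the constructs was -0.00 (95% interval -0.20 to 0.20, adjusted p = 0.980). HEATR1, another scaffold, fell by 0.69 and 0.96, and WDR43 by 0.28 and 0.56. RSF1 exceeded RSF1delUAB by 0.27 in HEATR1, a call lost without any 1 of the RSF1delUAB libraries or without RSF1 replicate 2 or 3, and by 0.28 in WDR43.

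Of the other small-subunit factors, NOB1 was higher and BYSL and RRP12 lower with RSF1delUAB than with control. NOB1, the nuclease that makes the last cut of 18S ribosomal RNA, rose from 30.6, 32.8 and 30.6 CPM in control to 49.2, 47.0 and 49.1 CPM with RSF1 and 40.4, 41.8 and 38.9 CPM with RSF1delUAB. The groups did not overlap, and the log2 fold changes were 0.63 ± 0.075 (adjusted p = 3.38e-07) and 0.37 ± 0.076 (adjusted p = 0.000253), with 0.26 between the constructs. TSR1 changed by 0.16 with RSF1 (adjusted p = 0.0369), a call lost without control replicate 1 or 2 or RSF1 replicate 2, and by -0.12 with RSF1delUAB, which was not called. RSF1 exceeded RSF1delUAB by 0.29 in TSR1. BYSL changed by -0.13 (not called) and -0.46, with 0.33 between the constructs, a call lost without RSF1delUAB replicate 2. RRP12 changed by -0.12 (not called) and -0.40, with 0.28 between the constructs, a call lost in 4 of the 6 fits that left out 1 library.

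**Figure D4:**
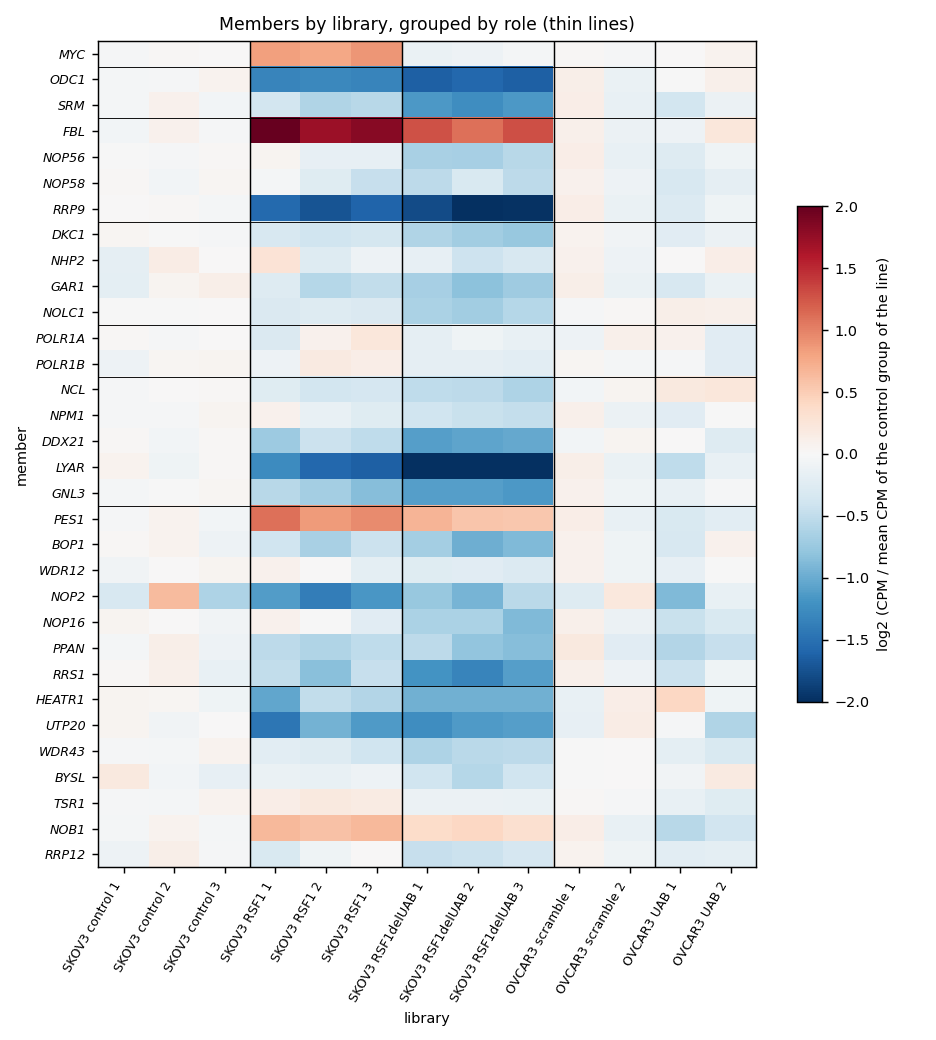
Log2 of each library's CPM over the mean CPM of the control group of its line (colour scale, -2 to 2, values beyond it shown at its ends), for the 32 members (rows, grouped by role) in the 13 libraries (columns). LYAR, RRP9 and ODC1 are blue and FBL is red in all 6 construct libraries of SKOV3, the RSF1delUAB columns are bluer than the RSF1 columns for most members, and the OVCAR3 columns are pale.

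Genes that lie near a member can move with it when a whole chromosome region differs between cell populations, so each member was set beside the median of the other tested genes within 10 Mb. PES1, at 0.97 with RSF1 and 0.59 with RSF1delUAB, lay among genes with medians of 0.95 and 0.99. NOB1 lay among genes at 0.47 and 0.41, TSR1 among genes at 0.51 and 0.47, and GAR1 among genes at -0.78 and -0.87. After subtraction PES1 was at 0.02 and -0.39. GAR1 turned to 0.34 and 0.15, TSR1 with RSF1 to -0.35, and NOB1 with RSF1delUAB to -0.04. With RSF1, neighbours fell too around NCL (-0.31 against -0.26 for neighbours), GNL3 (-0.69 against -0.56) and HEATR1 (-0.69 against -0.48). The same held for BOP1 (-0.49 against -0.30), DKC1 (-0.35 against -0.21) and NOLC1 (-0.28 against -0.17). Neighbours did not fall around DDX21 (-0.55 against 0.08), PPAN (-0.55 against 0.14) and WDR43 (-0.28 against 0.18). UTP20, at -1.16 with each construct, lay among genes at -0.62 with RSF1 and -0.28 with RSF1delUAB. After subtraction UTP20 stood at -0.54 and -0.88, so its equal falls did not stay equal.

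The members with the largest changes went further than their neighbours. FBL lay among genes at 0.70 and 0.50, RRP9 among genes at -0.56 in both comparisons, LYAR among genes at -0.24 and -0.60 and ODC1 among genes at -0.25 and -0.16. The genes around MYC had a median of -0.32 with RSF1, against the rise of MYC. Less the neighbours, the median of the other 31 members was -0.18 with RSF1 and -0.58 with RSF1delUAB. Between the constructs it was 0.32, and single neighbourhoods differed by -0.34 to 0.33. What part of a member's change came from its region was not tested.

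**Figure D5:**
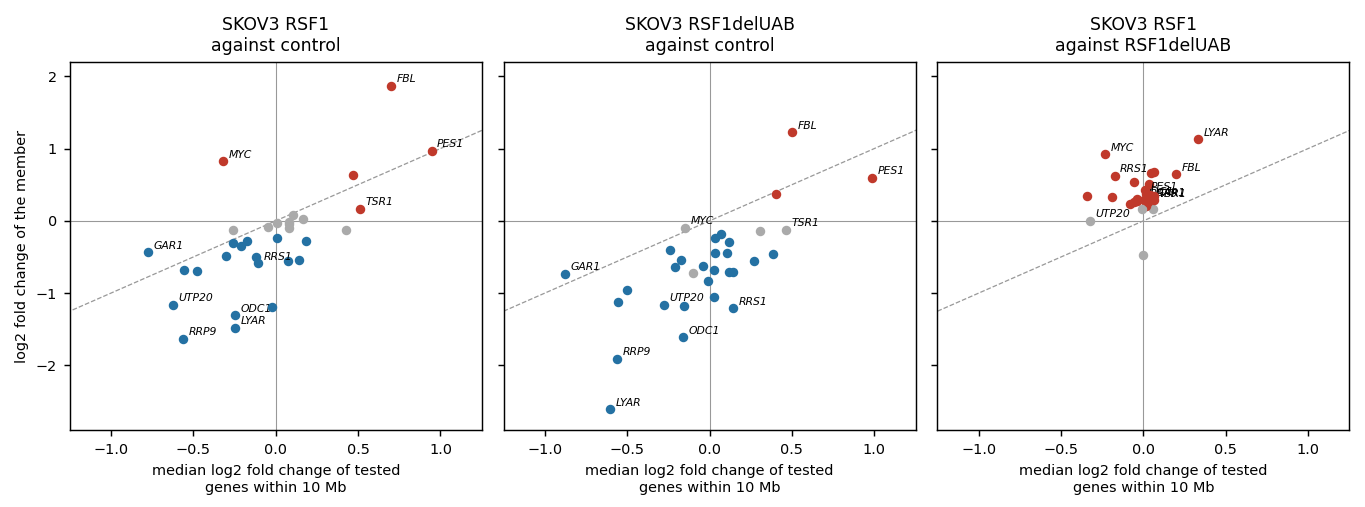
Log2 fold change of each member (y axis) against the median of the tested genes within 10 Mb of it (x axis) in the 3 SKOV3 comparisons, coloured by call (red higher, blue lower, grey not called), with a dashed line where both are equal. Against control, PES1 with RSF1 lies near the line and with RSF1delUAB below it, GAR1 lies above it, LYAR, RRP9 and ODC1 far below it and FBL and MYC above it, and neighbour medians draw in towards 0 between the constructs.

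Of 50 other genes of the small-subunit processome, 12 were higher and 24 lower with RSF1, 6 higher and 30 lower with RSF1delUAB, and 22 higher and 4 lower with RSF1 than with RSF1delUAB. Among all genes 34.3% were higher and 32.9% lower with RSF1, 34.5% and 32.1% with RSF1delUAB, and 18.5% and 20.2% between the constructs. These shares apply to each SKOV3 list below, and no list was tested as a set. With both constructs RRP7A rose (1.11 and 0.86) and KRR1 fell (-1.32 and -1.37). With RSF1, WDR46 rose (0.76) and ABT1 fell (-1.41). With RSF1delUAB, FCF1 rose (0.70) and NOP14 fell (-1.53). Mean NOP14 was 82.8 CPM in control, 51.0 CPM with RSF1 and 28.6 CPM with RSF1delUAB. Here and in the lists below, genes are named by the smallest adjusted p of each comparison. A gene named for 1 construct may thus have changed with the other too. NOP14 (0.83) and UTP4 (0.43) were higher and UTP23 (-0.53) and BMS1 (-0.26) lower with RSF1 than with RSF1delUAB.

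Of 51 other large-subunit assembly genes, 12 were higher and 25 lower with RSF1, 10 higher and 30 lower with RSF1delUAB, and 19 higher and 2 lower between the constructs. NOP53 (1.78 and 1.37) and the helicase DDX24 (0.61 and 0.67) rose with both constructs. URB2 fell with both (-1.29 and -1.66), TEX10 with RSF1 (-0.85) and RRP15 with RSF1delUAB (-1.19). Between the constructs DDX27 (0.58) and EBNA1BP2 (0.52) were higher and DDX51 (-0.67) and DDX54 (-0.31) lower with RSF1. Both assembly lists thus had more members lower than higher against control and more higher than lower between the constructs. The calls of all genes were split about evenly in each comparison.

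Of 15 partners of the small nucleolar particles, 5 were higher and 6 lower with RSF1, 4 and 5 with RSF1delUAB, and 4 and 3 between the constructs. These counts were near the shares of all genes. RUVBL2 (1.03 and 0.57), an ATPase of particle assembly, and SNU13 (0.88 and 0.76), a core box C/D protein, rose with both constructs as FBL did. SHQ1 (-0.83 and -0.70) and RPAP3 (-0.61 and -0.49) fell with both. NOPCHAP1 (-0.67) and ZNHIT3 (-0.48) were lower with RSF1 than with RSF1delUAB, and RUVBL2 (0.45) was higher. TERT, the telomerase reverse transcriptase, which stands in this list and among the MYC targets, had 5.27 CPM in RSF1 but 0.554 CPM in RSF1delUAB libraries, a log2 fold change of 3.23 ± 0.31 (adjusted p = 5.33e-08).

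Of 21 other genes of RNA polymerase I and its factors, 6 were higher and 7 lower with RSF1, 3 and 10 with RSF1delUAB, and 8 and 1 between the constructs. The counts with RSF1 were near the shares of all genes. POLR2F (0.74 and 0.67), a subunit shared by the nuclear polymerases, and TAF1B (0.87 and 0.62) rose with both constructs. TBP (-0.47) and UBTF (-0.28) fell with RSF1, and TCOF1 (-0.62), known as treacle, and POLR1D (-0.53) with RSF1delUAB. With RSF1, TCOF1 (0.48) and POLR1E (0.45) were higher and UBTF (-0.37) lower than with RSF1delUAB.

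Of 39 tested genes among other known MYC targets, 10 were higher and 15 lower with RSF1, 8 and 23 with RSF1delUAB, and 20 and 4 between the constructs. The replication helicase gene MCM5 (1.26 and 0.97) and SHMT1 (0.87 and 1.24) rose with both. The cap-binding factor EIF4E (-1.14 and -1.12) and the CTP synthase CTPS1 (-0.92 and -1.58) fell with both, and CTPS1 was 0.66 higher with RSF1 than with RSF1delUAB. TMEM97 (-0.91) and SLC29A2 (-0.72) were lower in that comparison.

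Of 15 tested genes of polyamine metabolism other than ODC1 and SRM, 2 were higher and 8 lower with RSF1, 0 and 8 with RSF1delUAB, and 5 and 1 between the constructs. AMD1 (-0.69), which makes the aminopropyl donor, and MTAP (-0.68) fell with RSF1, while the oxidase SMOX (0.51) and EIF5A (0.16) rose. The transporter ATP13A3 (-1.32) and the spermine synthase SMS (-0.84) fell with RSF1delUAB. Mean ATP13A3 was 379 CPM in control, 249 CPM with RSF1 and 151 CPM with RSF1delUAB. ATP13A3 (0.72) and SMOX (0.60) were higher and AZIN1 (-0.29) lower with RSF1 than with RSF1delUAB.

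Of the 15 tested partners and relatives of MYC, 4 were higher and 7 lower with RSF1, 5 and 7 with RSF1delUAB, and 1 and 5 between the constructs. The MAX partners MXD4 (0.79 and 0.89) and MXD3 (0.68 and 0.79), known as repressors at E-boxes, rose with both constructs. MLX (-1.16 and -0.58) fell with both. MLXIP fell with RSF1 (-0.97), with means of 164.5 CPM in control, 83.9 CPM with RSF1 and 120 CPM with RSF1delUAB. FBXW7 (-0.72), part of the ligase that marks MYC for degradation, fell with RSF1delUAB. MXD1 (0.92) was higher and MLX (-0.58) and MLXIP (-0.52) were lower with RSF1 than with RSF1delUAB.

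Of 22 proliferation genes, 9 were higher and 11 lower with RSF1, 4 and 14 with RSF1delUAB, and 14 and 1 between the constructs. AURKB rose with both (0.53 and 0.24), and CCNE1 (0.59) with RSF1. The cyclin CCNA2 (-0.91 and -1.22) and the kinase PLK1 (-0.65 and -0.85) fell with both. TOP2A rose with RSF1delUAB (0.55) and was lower with RSF1 than with RSF1delUAB (-0.41), where MCM7 (0.42) and BUB1 (0.43) were higher. The median proliferation gene changed by -0.12 with RSF1, -0.31 with RSF1delUAB and 0.23 between the constructs, and the part of proliferation in the members' values was not tested.

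In OVCAR3, the UAB peptide against the scramble control asked what the isolated region does in cells with a high level of RSF1. No member was called, with 0 higher and 0 lower of 32, while 5.45% of the 18359 genes tested were higher and 5.46% lower, 10.9% in all. None of the 31 members other than MYC was called with a 2-fold change either, against 2.55% of genes upwards and 2.51% downwards. At an unadjusted p under 0.05 edgeR gave 0 higher and 3 lower members (NOB1, PPAN and NOP16), and DESeq2 and limma-voom called 0 after adjustment and gave the same 0 and 3 before it. The median member changed by -0.17, against 0.01 for all genes. The largest value among members of more than a few CPM was that of PPAN, -0.52 (adjusted p = 0.0987), followed by NOB1 at -0.47 (adjusted p = 0.0703) and NOP16 at -0.38 (adjusted p = 0.110).

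NOB1 stood at 35.1 and 28.8 CPM with the scramble control and 21.7 and 24.4 CPM with the UAB peptide, so these groups did not overlap. NOP16 stood at 52.3 and 45.0 against 35.6 and 39.2 CPM, without overlap. Of the 31 members other than MYC, 13 had groups that did not overlap. Among all genes the groups did not overlap in 54.1%, a larger share. Without scramble replicate 2 both PPAN and NOB1 passed the threshold, and without UAB replicate 1 UTP20 did. The 2 replicates of each OVCAR3 group differed by gene length, the shortest 25% of genes standing 0.15 log2 units above or below the longest with the scramble control and 0.27 with the UAB peptide. Its part in these values was not tested.

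The other members of OVCAR3 lay closer to 0. LYAR was at -0.32, UTP20 at -0.28, PES1 at -0.26, NOP58, RRS1 and WDR43 at -0.25, SRM at -0.24, GAR1 at -0.23 and RRP12 at -0.20. TSR1 was at -0.19, RRP9 and DKC1 at -0.18, NOP56 at -0.17, POLR1B and DDX21 at -0.12, NPM1 at -0.11, BOP1 at -0.10, GNL3 and WDR12 at -0.08 and POLR1A at -0.06. Above 0 were NCL at 0.21, HEATR1 at 0.18, NOLC1 at 0.10, FBL and NHP2 at 0.07, BYSL at 0.06 and ODC1 at 0.04. NOP2, at few counts, was at -0.48. The intervals were wide, for example -0.65 to 0.02 for LYAR and -0.25 to 0.33 for ODC1. A change of -0.28, the median member with RSF1 in SKOV3, lay within the first and just outside the second. The changes of LYAR and ODC1 themselves with RSF1 in SKOV3, -1.48 and -1.31, lay outside these intervals.

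Other genes of the pathway were also mostly uncalled in OVCAR3. Of the 50 processome genes 0 were higher and 4 lower, among them TBL3 (-0.56) and NOL6 (-0.53), and of the 51 large-subunit genes 0 and 1, EIF6 (-0.58). Of polymerase I factors RRN3 was lower (-0.48), of polyamine genes SAT1 (-0.94) and AMD1 (-0.45), of other MYC targets DCTPP1 (-0.71) and PUS1 (-0.58), and of proliferation genes E2F1 (-0.46). No partner of the small nucleolar particles was called.

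Of the 16 partners and relatives of MYC, 3 were higher and 0 lower, where 5.45% of all genes were higher. MYCL, a paralog of MYC, rose from a mean of 15.4 to 37.2 CPM (1.27 ± 0.17, adjusted p = 0.00020), and MYCN, another paralog, from 0.751 to 2.93 CPM (1.95 ± 0.43, adjusted p = 0.00835). MXI1, a MAX partner named here after its values were seen, rose by 0.61 log2 units. MYC itself did not pass the test in the same libraries.

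Between the lines, levels were scaled separately and line, construct and doxycycline differ together, so values are given with no test. FBL stood at 1026 CPM in OVCAR3 scramble and 70.2 CPM in SKOV3 control libraries, a ratio of 14.6. RRP12 was 4.85 times, NOP16 2.72 times and ODC1 2.15 times as high in OVCAR3. In the other direction RRP9 was 3.23 times, LYAR 2.19 times, BOP1 2.15 times, UTP20 2.10 times and MYC 2.05 times as high in SKOV3. Of the 32 members 14 were above every SKOV3 control library in both OVCAR3 scramble libraries, 11 were below and 7 overlapped. Per kilobase of counted length, the highest members were NPM1 (107 CPM per kb), NCL (104) and SRM (58.9) in SKOV3 control and FBL (479.7), NPM1 (108) and ODC1 (73.7) in OVCAR3 scramble libraries.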

How the data were processed

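The authors deposited read counts per gene, 1 table per line, with whole numbers that were not scaled. The submitters' processing notes name FastQC, STAR 2.7.9a and Subread and the builds GRCh38, hg38 and GRCm38, with no roles; the annotation release and the use of strand are likewise not given in these sources. One record split over 3 lines (ANK2) was rejoined. Groups came from the labels. Each line was fitted apart with edgeR 4.0.16 (R 4.3.3): TMM, filterByExpr with a minimum count of 10, quasi-likelihood test, Benjamini-Hochberg over all genes tested, threshold 0.05, prior count 0.125. SEs were taken as the size of the log2 fold change divided by the square root of F. Alternatives were DESeq2 1.42.0, limma-voom (limma 3.58.1), other scalings and filters, the replicate number as a block, only the compared groups, each library left out, and subtraction of the neighbour median. The members, the other gene lists and the rules were chosen with earlier results of these data known. All 32 members are named. Values per library are given for MYC and, in each comparison, for the 3 largest rises and falls with an adjusted p under 0.05. Of every other list up to 2 risen and 2 fallen genes with the smallest adjusted p are named. Values per library of other members were chosen after their values were seen. Same-numbered replicates of SKOV3 had correlations of -0.06 to 0.09 in their deviations, so the numbers were not taken to pair libraries.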

Additional observations from a re-analysis of the deposited data

How the results depend on the processing

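The rise of MYC with RSF1 held its direction and call in every alternative fit, at 0.80 to 0.86 with 1 library left out against control and 0.90 to 0.95 against RSF1delUAB, and MYC was called in no fit of RSF1delUAB against control or of OVCAR3. With 1 library left out, 4 to 7 members were higher and 16 to 20 lower with RSF1, 3 and 22 to 25 with RSF1delUAB, and 21 to 25 and 0 between the constructs. Other tools, scalings and filters kept these counts within 1.5 times. With the replicate block, which rests on a number the libraries only share, 22, 28, 24 and 0 members were called in the 4 comparisons. In OVCAR3, 0 to 2 members were lower with 1 library left out (2 without scramble replicate 2, 1 without UAB replicate 1), where the lone library of a group is assumed to vary like the others. Same-numbered OVCAR3 libraries deviated in opposite directions (r = -0.22), and with the numbers crossed in the replicate block, an alternative chosen after seeing the data, 5097 genes, 1 member higher and 10 members lower were called. Less the neighbour median, GAR1 turned to 0.34 with RSF1 and 0.145 with RSF1delUAB, TSR1 with RSF1 to -0.35, NOB1 with RSF1delUAB to -0.0387 and PES1 with RSF1delUAB to -0.39. Among called members and the member median, this subtraction left 7 results alike, moved 15 and reversed 2 with RSF1 against control. With RSF1delUAB against control it left 13 alike, moved 13 and reversed 3. The cause was not tested. OVCAR3 has 2 libraries a group, and NOP2, at about 1 CPM, rests on few counts in both lines.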
